A study of Bos taurus with 4 samples.

Results

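The regions described here are promoter regions of cultured cattle rumen epithelial cells that the open chromatin lists of both Control-named libraries held and the lists of both BT-named libraries did not. They were chosen by presence in the lists: intervals of the 4 libraries that overlapped by at least 1 bp were merged, and a merged region was kept where an interval of both Control-named and of neither BT-named library lay in it and the summit of any interval was within 1000 bp of an annotated gene start. This gave 998 of 15603 promoter regions (6.40%) and of 115970 regions in all, while 310 promoter regions (1.99%), called the BT-named class below, were held by the BT-named pair alone and 12161 were in all 4 lists. Over all 115970 regions, at promoters or not, the Control-named lists alone held 15188 (13.1%). Presence in the lists chose these regions and peak values come from the same lists, so both are given as a description, with no test and nothing read from the counts.

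The cells were rumen epithelial primary cells of 1 Holstein bull calf aged 2 weeks and fed milk replacer, and chromatin was profiled by ATAC-seq, in which a transposase cuts open DNA. The 4 libraries form 2 pairs, 1 pair untreated and the other kept with 5 mM butyrate for 24 h, and the labels conflict on which is which. The descriptions and the deposited values name the first pair Control and the second BT, whereas the titles and the treatment field give the first pair as butyrate-treated. The groups are therefore called Control-named and BT-named (n = 2 libraries each), which settles the pairs but not the direction of treatment. The 2 libraries of a pair are called biological replicates, but nothing says that they came from separate cultures. The lists held 94941 and 98962 intervals in the Control-named and 83391 and 84808 in the BT-named libraries, of which 14216 and 14687, and 13427 and 13606, were within 1000 bp of a gene start. Of 14 epithelial marker genes 10 had a promoter region in all 4 libraries, KRT19 and SFN had one in the BT-named libraries only, and TP63 and CDH1 had none in any library. Of 9 fibroblast markers 3 were listed in all 4 and 6 in any library. Of 3 endothelial markers KDR was listed in all 4, and PECAM1 and CDH5 in none. PTPRC, CD3E and CD14 of immune cells were also in none.

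A promoter is the DNA around the start of a gene where RNA polymerase II assembles. At active promoters the stretch just upstream of the start is kept free of nucleosomes, and many promoters of mammals lie in CpG islands, which are rich in unmethylated CG pairs. A gene can have more than 1 start, and open stretches inside the first intron often act as enhancers. Butyrate, a short-chain fatty acid from microbial fermentation in the rumen, inhibits histone deacetylases and so raises histone acetylation. In bulk chromatin, a region open in fewer cells and a region less open in each cell cannot be told apart, and absence from a list does not mean that there was no signal.

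The 998 regions were low to middling in height. The peak value, the deposited signal at the summit, ran from 24 to 296 in Control-named 1 (median 67) and from 25 to 309 in Control-named 2 (median 77), where the lowest value that any library listed was 21 or 22. The mean over both libraries had a median of 72 (quartiles 49.5 and 102), against 236.5 for promoter regions of all 4 libraries. In 211 regions both values reached 100, and in 14 both reached 200. Peak values of the 2 libraries went together, with Pearson's r of 0.905 for log2 values across the 998 regions, which share their libraries and are not independent. Control-named 2 was the higher library in 676 regions and Control-named 1 in 296, with a median ratio of 1.10, close to the 1.13 of promoter regions listed in all 4. The 2 values differed more than 1.5-fold in 86 regions. The merged regions were 354.5 bp long at the median, against 724 bp for those of all 4 libraries.

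**Figure D1:**
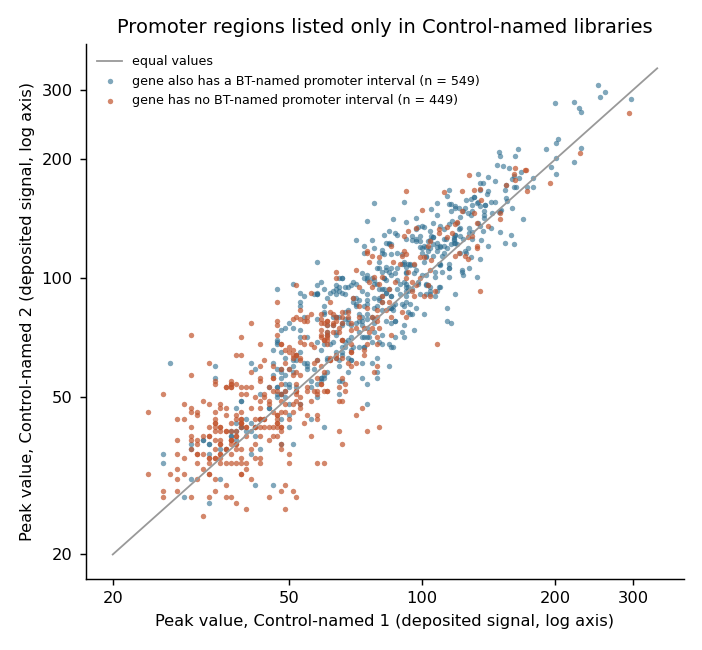
Peak value (deposited signal, log axes) of the 998 regions in Control-named 1 (x) and Control-named 2 (y), 1 point a region, coloured by whether any of its genes also had a BT-named interval within 1000 bp of the start. Regions without such an interval (449) sit lower, with a median of 53.5, than the other 549, with a median of 87.5.

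The regions lay off the gene start more than on it. Their summit was 572 bp from the nearest start at the median, against 87 bp for promoter regions of all 4 libraries and 284.5 bp for those of the BT-named libraries only. Only 132 (13.2%) were within 100 bp of a start, against 53.8% of the regions of all 4. They also lay mostly downstream of the start, since only 316 (31.7%) were upstream, against 56.5% in all 4 and 55.5% in the BT-named class. Seen from the side of all promoter regions, 1.81% of those within 100 bp downstream of a start were in the Control-named lists alone, a share that came to 8.18% at 100 to 250 bp, 10.9% at 250 to 500 bp, 16.8% at 500 to 750 bp and 23.0% at 750 to 1000 bp. Upstream the share went from 1.84% to 12.1% over the same distances. Regions listed in the BT-named libraries only stayed between 1.30% and 4.10% at every distance on both sides.

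**Figure D2:**
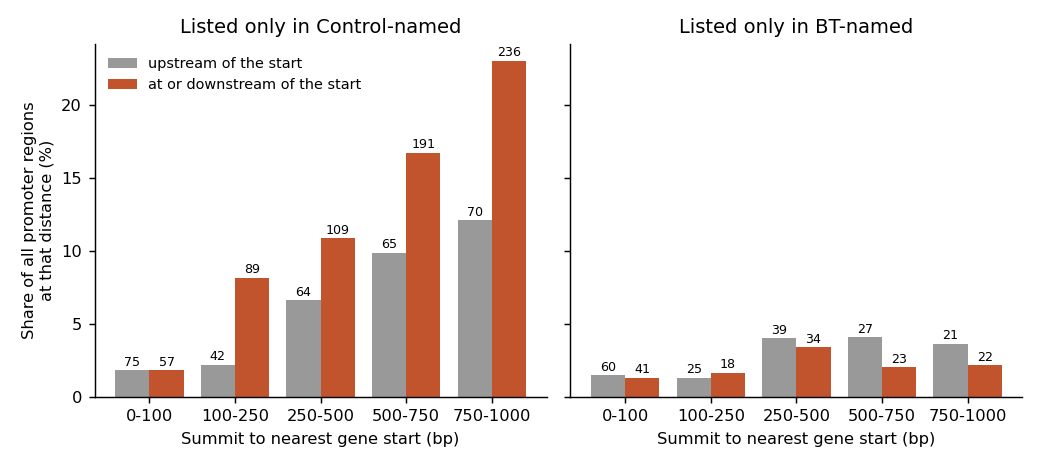
Share (%) of all promoter regions at each distance from the nearest gene start held by the Control-named lists alone (left) or the BT-named lists alone (right), by side of the start, with the number of regions above each bar. The Control-named share reaches 23.0% (236 regions) at 750 to 1000 bp downstream, where the BT-named share is 2.15% (22 regions).

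In 549 of the 998 regions (55.0%) at least 1 of the genes also had a BT-named interval within 1000 bp of its start, and in the other 449 (45.0%) none had. The 2 kinds differed in place and height, so they are described in turn. For 16 of the 549 the other interval belonged to a different start of the same name over 2500 bp away, and 12 of these were transfer RNA genes, whose names recur at many loci.

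Most regions of the first kind lay beside a promoter that every library listed, and are called flanks below. For 497 regions (49.8% of all 998) a region listed in all 4 libraries lay within 2000 bp at the same gene, against 21.3% of the BT-named class and 14.1% of the regions of all 4 themselves. The 497 were counted over both kinds. Among genes of the second kind only KCTD15, SULT1A1 and XK had a promoter region of all 4 libraries. The gap between them was 265 bp at the median (quartiles 167 and 428), and the summits were 832 bp apart (quartiles 696 and 976). The neighbour was nearer to the start in 436 of the 497 and taller in 479, by a median factor of 2.86, and the flank lay downstream of the start in 391 and upstream in 106. The 491 neighbours themselves had median peak values of 238 and 272 in the Control-named and 220 and 230 in the BT-named libraries, against 222, 252, 201 and 208 over all promoter regions of the 4 libraries. Both Control-named values were above both BT-named ones in 215 neighbours (43.8%) and below in 55 (11.2%), against 46.8% and 10.5% of all promoter regions listed in all 4, so the neighbours were near the background.

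In lipid synthesis, ACLY, which makes cytosolic acetyl-CoA, had a flank of 90 and 115 with a CpG island, and its main region 265 bp away had 706 and 778 in the Control-named and 697 and 674 in the BT-named libraries. The main region thus had close values in all 4 libraries, with the Control-named pair above the other, while the flank was in the lists of 1 pair only. MVD, which makes isopentenyl diphosphate, had a flank of 114 and 78 beside a main region of 397, 415, 368 and 394.

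ITGAV, CD44 and CCDC80 had flanks among the 15 tallest regions. ITGAV, the alpha-V integrin subunit, had peak values of 201 and 220 (210.5 ± 13.4) at 946 bp inside the gene, on chromosome 2 at 9759132 to 9759548 (UMD3.1). The main region of ITGAV had 560 and 635 in the Control-named and 452 and 491 in the BT-named libraries. CD44, the hyaluronan receptor, had 191 and 213 (202 ± 15.6) at 870 bp, on chromosome 15 at 66455043 to 66455412, with a main region of 251 and 308 against 254 and 259, whose groups overlapped. CCDC80, a secreted matrix protein, was an exception to the order of heights. Its region at 718 bp had 229 and 214 (221.5 ± 10.6), above the main region of 99 and 129 in the Control-named and 77 and 86 in the BT-named libraries. ITGB1, the common beta-1 integrin subunit, had 2 such regions, one of 149 and 147 at 12 bp from the start and one of 135 and 136 at -336 bp, and the shared region beside them had 170 and 234 against 202 and 242. The first of these lay 8 bp from the shared region, so its place among the members rests on the exact interval edges.

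Other regions among the 15 tallest that had a BT-named interval at the gene showed the same layout, except MYADM. SERTAD2, a transcriptional coregulator, was the tallest of all 998, with 296 and 284 (290 ± 8.49) at -896 bp, and its main region 1159 bp away had 704, 751, 760 and 766. KLHL21, an adaptor of a ubiquitin ligase in mitosis, had 226 and 270 with a main region of 286, 272, 331 and 289, and SPATA20 had 221 and 280 with a main region of 197, 170, 202 and 216. All 3 main regions were thus higher in both BT-named libraries, whose lists lacked the flanks. That of SPATA20 was lower than its flank in the Control-named ones. This order was the rarer one, with 55 of the 491 neighbours (11.2%) against 215 (43.8%) for the reverse. A taller region of all 4 libraries further into KLHL21 had 644 and 617 in the Control-named and 506 and 523 in the BT-named libraries. The shared start of HCFC1R1 and THOC6, the latter a subunit of the mRNA export complex, had 250 and 309, and that of DNAJB9, a chaperone of the endoplasmic reticulum, and THAP5 had 203 and 225. CSTB, an inhibitor of cathepsins, had 200 and 278, SYS1, a Golgi membrane protein, had 221 and 197, and LOC101904849 had 259 and 296. These regions lay at 400 to 956 bp from the start, on either side. MYADM, a membrane protein of lipid rafts, had 252 and 288 and no region of all 4 libraries at its start.

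**Figure D3:**
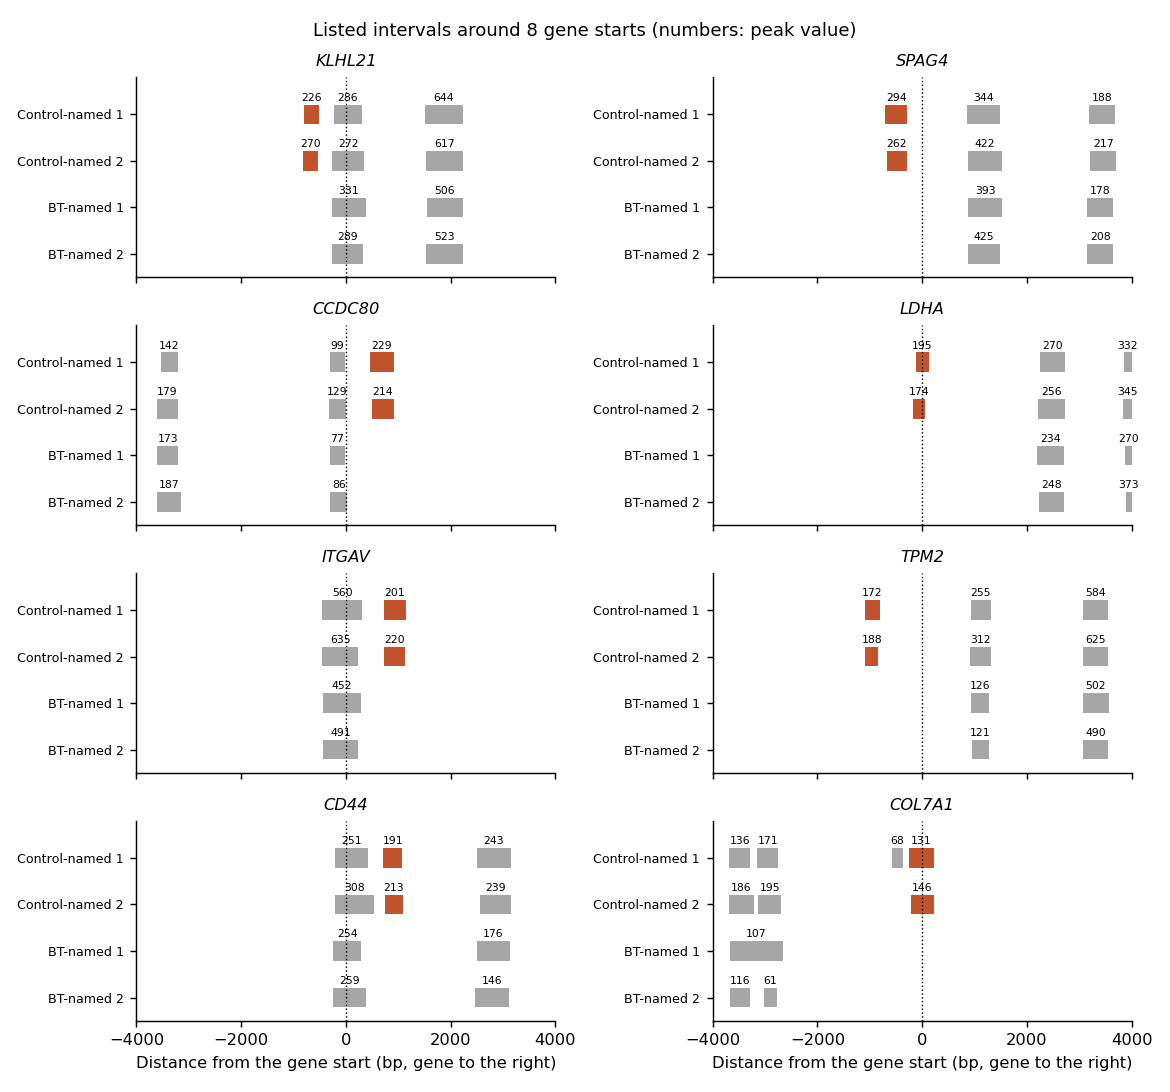
Listed intervals (bars) of the 4 libraries within 4000 bp of 8 gene starts, drawn to scale with the gene running to the right and the peak value above each bar; regions listed in the Control-named libraries only are orange and the genes were chosen after their values were seen. In the left column the orange region lies beside a grey one at the start that all 4 libraries list, and in the right column no BT-named interval has its summit within 1000 bp of the start.

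The 449 regions of the second kind were lower and closer to the start. Their median peak value was 53.5 (quartiles 40.5 and 73), the median distance from the start 292 bp, and 111 (24.7%) were within 100 bp of it. They belonged to 465 genes, 3.14% of the 14804 genes with a promoter region in any library, whereas all 998 regions had 1057 genes (7.14%). The nearest BT-named interval was 4664 bp away at the median (quartiles 1787 and 11013), with 15 within 500 bp and 124 beyond 10000 bp, against a median of 330 bp in the first kind. A region of all 4 libraries lay within 5000 bp of 203 of them (45.2%), and it was the taller in 187. Of the 465 genes, 390 had a region of all 4 libraries somewhere in or near the gene, and 36 had no other listed region. Further regions listed in the Control-named libraries only were held by 171 genes, and 78 had one listed in the BT-named libraries only. Like counts over all promoter genes are not given here. Over all 115970 regions the Control-named lists alone held 13.1%, so 171 and 78 are no trait of these genes.

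**Figure D4:**
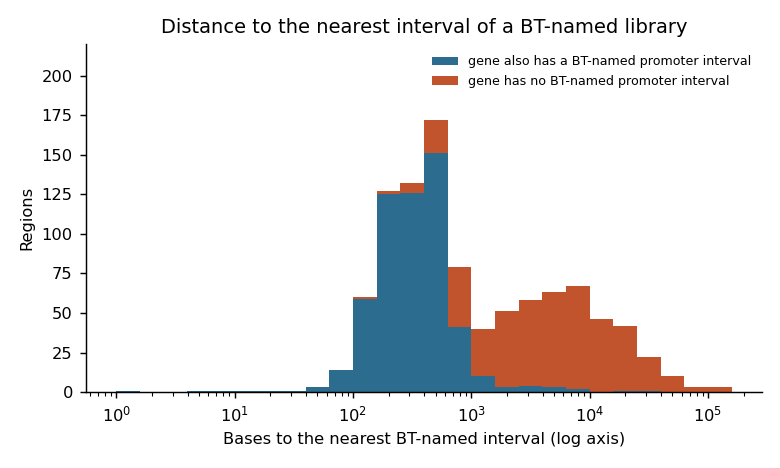
Number of regions by the bases between them and the nearest interval of a BT-named library (log axis), stacked by whether a gene of the region also had a BT-named promoter interval. The first kind (549) centres on a median of 330 bp and the second (449) on 4664 bp.

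LDHA, a subunit of lactate dehydrogenase, was among the genes with a region of the second kind within 100 bp of the start. Its region on chromosome 29 at 26555769 to 26556068 had its summit 12 bp upstream of the start in one library and 20 bp downstream in the other, with peak values of 195 and 174 and no CpG island. The nearest region of all 4 libraries lay 2073 bp away inside the gene. It had 270 and 256 in the Control-named and 234 and 248 in the BT-named libraries, so the Control-named pair was above by little. A taller one further into LDHA had 332 and 345 against 270 and 373, whose groups overlapped. SPAG4, a nuclear envelope protein of the spermatid, had the tallest region of the second kind, with 294 and 262 (278 ± 22.6) at -479 bp, and a region of all 4 libraries further in had 344, 422, 393 and 425, whose groups overlapped. TPM2, the beta tropomyosin of actin filaments, had 172 and 188 at -906 bp. The nearest region of all 4 libraries within its gene had 255 and 312 against 126 and 121, which did not overlap. A taller one further in had 584 and 625 against 502 and 490, also without overlap. Among all 65892 regions listed in all 4 libraries, 35835 (54.4%) had both Control-named values above both BT-named ones. The nearest BT-named intervals began at 882 and 870 bp from the start of SPAG4 and at 929 and 946 bp from that of TPM2. Their summits lay beyond 1000 bp, so the place of both genes in this kind rests on the summit. COL7A1, the collagen of anchoring fibrils below the epithelium, had 131 and 146 at -30 bp with a CpG island, and the nearest BT-named interval was 2409 bp away.

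The other named genes of the second kind covered several functions. PQLC2, a lysosomal exporter of cationic amino acids, had 161 and 184, and ZNF436, a zinc finger protein, had 173 and 166 with a BT-named interval of 334 only 417 bp away. CHAD, a matrix protein of cartilage, had 162 and 177, and TMEM8C, the fusogen of muscle precursors, 135 and 168. The TMEM8C region had a BT-named interval 450 bp away. OR11H4, an olfactory receptor, had 150 and 141 at 884 bp into its gene. The uncharacterised LOC104974200, LOC788637, LOC104973985, LOC618322, LOC101907981 and LOC104971189 had means between 147 and 217, and that of LOC618322 lay 116 bp from a BT-named interval, the shortest gap of this kind. Further down the order, LIF, a cytokine of the interleukin-6 family, had 133 and 138, ZYX, a focal adhesion protein, 123 and 148 at -7 bp, and DDR1, a collagen receptor of epithelia, 92 and 166. A BT-named interval lay 397 bp from the ZYX region. The DDR1 values were the farthest apart of the 25 tallest of this kind.

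**Figure D5:**
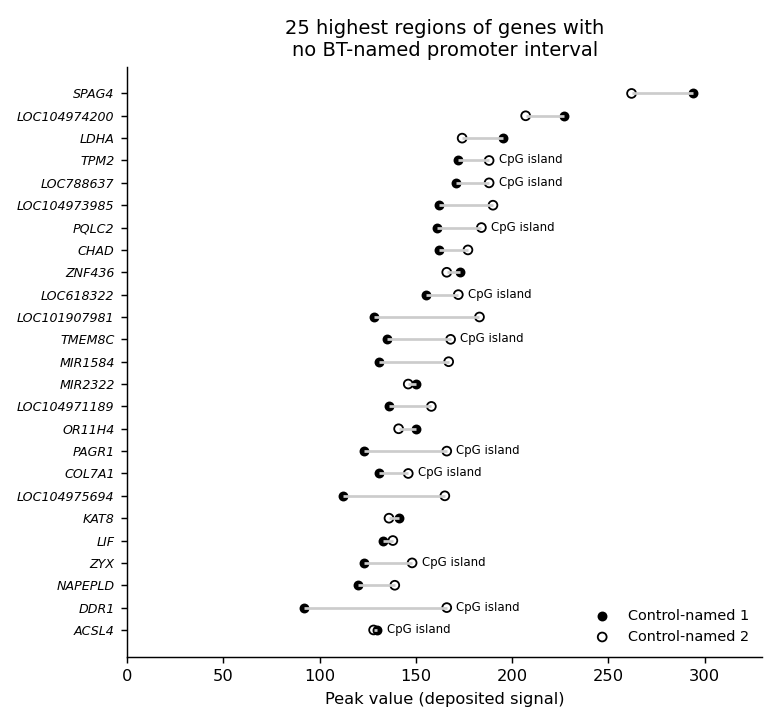
Peak value (deposited signal) in Control-named 1 (filled) and Control-named 2 (open) of the 25 tallest regions none of whose genes had a BT-named promoter interval, with regions that hold a CpG island marked. All 25 lie between 92 and 294 in both libraries, and the 2 values of a region are farthest apart at DDR1 (92 and 166).

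CpG islands were held by 492 of the 998 regions, or 49.3% (Clopper-Pearson exact 95% interval 46.2% to 52.4%, counting error only), against 38.7% of the BT-named class and 79.3% of the regions of all 4. The share was 59.2% in the first kind and 37.2% in the second, and 87.6% among the neighbours of the flanks. Within bands of mean Control-named peak value it was 42.4% from 25 to under 50, 51.4% from 50 to under 100 and 53.7% from 100 to under 200, against 56.2%, 59.8% and 73.2% of the regions of all 4 in the same bands. Neighbouring regions are not independent, and the bands were not matched on distance from the start.

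The gene lists below were written with earlier results of these data known and are given as counts beside the 7.14% of all promoter genes. For the other direction, 324 of the 14804 promoter genes had a region of the BT-named class, and the count of such genes is given for each list below that had any. The Control-named share was above 7.14% in several lists, on few genes each. Of 29 actin and contractile genes with a promoter region 5 were among the 1057 (17.2%): TPM2 and ZYX, given above, and ACTC1, the cardiac actin (51 and 60), MYH11, the smooth muscle myosin (53 and 87), and SYNPO, an actin bundler (108 and 93), the last 3 with a BT-named interval at the gene. Of 12 muscle genes 4 were (33.3%), all without a BT-named promoter interval, and 2 of the 12 had a region of the BT-named class. They were TMEM8C, DES, the muscle intermediate filament (33 and 42 at 60 bp), DMD, dystrophin (48 and 59), and MYOM1, a protein of the sarcomere (48 and 51). Apart from TMEM8C these were low. Of the 3 smooth muscle markers, DES and MYH11 were thus members, while ACTA2 was listed in all 4 libraries.

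Genes of hypoxia and glycolysis were almost all flanks. Of 15 hypoxia genes 4 were among the 1057 (26.7%), and 15 of 15 also had a promoter region in all 4 libraries. HIF1A, the oxygen-regulated transcription factor, had a flank of 96 and 108 beside a main region of 521, 616, 467 and 522. ADM, the peptide adrenomedullin, had 128 and 134 beside 132, 163, 130 and 172, and NDRG1, a stress-induced protein, had 97 and 124 beside 229, 288, 312 and 327. The fourth was P4HA1, a subunit of collagen prolyl hydroxylase (79 and 85). The main region of NDRG1 was higher in both BT-named libraries, and those of HIF1A and ADM overlapped between the pairs. Of 23 glycolysis genes 3 were (13.0%), namely LDHA, GPI, which interconverts the sugar phosphates (65 and 95), and PGK1, a kinase that makes ATP (69 and 96), and the latter 2 kept a main region in all 4.

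Among epithelial genes, the attachment to the basement membrane and the tight junction held members of the second kind. Of 11 basal and hemidesmosome genes 3 were among the 1057 (27.3%): COL7A1, ITGB1 and COL17A1, the transmembrane collagen of hemidesmosomes, with 54 and 68 at 235 bp. Of 15 junction genes 2 were (13.3%), CLDN7, a claudin, with 28 and 39, and TJP1, the scaffold ZO-1, with 37 and 39 and no BT-named interval within 25534 bp. Elsewhere in or near TJP1, 12 of the 20 listed regions of this gene were in all 4 libraries. Both junction values were near the floor of the lists. Of 20 keratin and desmosome genes 1 was (5.00%), KRT8 of simple epithelium, whose flank at 619 bp had 83 and 107 while its main region had 266 and 363 in the Control-named and 444 and 438 in the BT-named libraries. The main region of KRT8 was thus higher in the BT-named libraries, whose lists lacked the flank, and 1 gene of this list had a region of the BT-named class.

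Matrix and signalling lists held scattered genes. Of 32 fibroblast and matrix genes 5 were among the 1057 (15.6%): CHAD, COL5A1, a fibrillar collagen (112 and 133), THY1, a surface glycoprotein (27 and 61), DCN, the proteoglycan decorin (41 and 37 at -17 bp), and PRRX1, a mesenchymal transcription factor (47 and 78). Of 24 collagen genes by name 5 were (20.8%), with COL13A1 (31 and 39) and COL21A1 (24 and 32) besides those above. In the BT-named class were 1 of the 32 and 1 of the 24. Of 22 Wnt and YAP genes 4 were (18.2%), each a flank: FZD7, a Wnt receptor (95 and 125), LRP6, a coreceptor (60 and 94), LEF1 (73 and 80) and TEAD1 (75 and 100), both transcription factors of the pathways, and 2 of the 22 were in the BT-named class. In the TGF-beta and BMP list 2 of 26 were (7.69%), with SKI, a repressor of SMADs (96 and 103), and BMP4, a secreted ligand (38 and 38).

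Lists of cell division and of butyrate handling held few or none. None of 31 DNA replication, 16 cell cycle inhibitor, 16 histone deacetylase and sirtuin and 20 short-chain fatty acid and ketone genes was among the 1057, nor was any of 38 histone genes. Of 28 mitosis genes 1 was (3.57%), CDC20, an activator of the anaphase-promoting complex, with a flank of 115 and 101 beside a main region of 562, 595, 518 and 563. In other lists the counts were 1 of 24 for AP-1 and immediate early genes, with MAFK (127 and 127), and 1 of 24 for neuronal genes, with NEFM, a neurofilament (56 and 40). More neuronal genes, 3 of the 24, were in the BT-named class. Of cytokine and innate receptor genes 3 of 29 were, LIF, CSF2, a growth factor of myeloid cells (35 and 36), and REL (71 and 125), and as many, 3 of the 29, were in the BT-named class. Of interferon response genes 2 of 20 were among the 1057, IFIT2 (50 and 34) and IFNAR1 (81 and 104). Counts were 2 of 31 for membrane traffic, with SYTL1 (155 and 160) and RAB11FIP5 (148 and 194), 2 of 28 for developmental transcription factors, with PAX6 (55 and 60) and TBX2 (37 and 55) and 1 in the BT-named class, 2 of 17 for ion transport, with CLCN2 and SLC4A7, and 1 of 19 for housekeeping genes, PGK1.

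Gene families by name gave shares on both sides of 7.14%. Of 226 ZNF genes 16 were among the 1057 (7.08%), 8 of them without a BT-named promoter interval, among which ZNF750, a regulator of epidermal differentiation, had 81 and 101 at -92 bp. Of 222 SLC transporters 16 were (7.21%), of 169 TMEM genes 6 (3.55%), of 158 ribosomal protein genes 3 (1.90%), of 46 RAB GTPases 3 (6.52%), of 18 HOX genes 1 (HOXC9, 52 and 52) and of 10 olfactory receptors 2. SLC16A5, a monocarboxylate transporter, had a flank of 163 and 170 beside a lower shared region of 90, 109, 87 and 63, and SLC6A20, a proline transporter, had 52 and 96 at -16 bp with no BT-named promoter interval. Of 50 transfer RNA names 14 were (28.0%) and 11 were in the BT-named class, but 1 name stands for many loci, so a share of names is not a share of loci. The BT-named class held 6 of the ZNF genes, 4 of the SLC transporters and 1 each of the ribosomal protein, RAB, HOX and olfactory receptor genes.

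Of 170 microRNA genes 16 were among the 1057 (9.41%), 11 of them without a BT-named promoter interval, and 12 of the 170 had a region of the BT-named class. MicroRNAs are short RNAs that repress messenger RNAs, and the start given for them is that of the hairpin, not of the longer primary transcript. MIR205, abundant in stratified epithelia, had peak values of 117 and 130 with the summit 2 bp from the hairpin start, and MIR155, known from activated immune cells, had 61 and 52 at 107 bp. MIR1584 had 131 and 167, MIR2322 150 and 146, MIR30E 104 and 90, MIR2889 75 and 117, and MIR219-2 74 and 64. The lowest of these genes was MIR1777B with 47 and 45, and the others, MIR1721, MIR2296 and MIR2375, lay between 45 and 71. With a BT-named interval at the gene were MIR2294, which shares the region of RAB11FIP5, MIR2436 (125 and 117), MIR2284AA-1 (108 and 155), MIR2284L (91 and 85) and MIR2287 (102 and 96).

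Some genes had several of the regions. Of 24 names with 2 or more, 4 were transfer RNA names with 2 or 3 regions. Without a BT-named promoter interval, FGF2, a fibroblast growth factor, had 2 CpG island regions of 62 and 82 and of 60 and 52, 1 on each side of its start, TNFAIP8, a regulator of apoptosis, had 78 and 58 and 54 and 71, and PTPN3, a tyrosine phosphatase, had 61 and 73 and 37 and 39. FAM160B2 and CYP2C18, a cytochrome P450, had 2 each, at 34 to 55. LOC101905355, LOC101906754, LOC104972774, LOC104975541 and LOC104975645 also had 2 each, and only LOC101905355 passed 100 in both libraries at 1 of them. At FGF2 and TNFAIP8 the regions lay on both sides of the start, and at PTPN3 both lay inside the gene. With a BT-named interval were ITGB1 and its neighbour LOC101904840, ATG2B and GSKIP, which share a start region, ADAMTSL1, CSTB, DNAI2, LOC615936, SMC6 and TRAK1. In or near PTPN3 and GLDC, a subunit of glycine cleavage, 7 regions each were in the Control-named lists alone, 1 and 0 in the BT-named lists alone, and 10 and 5 in all 4. These genes had 20 and 15 listed regions in any library, and the Control-named share over all regions was 13.1%. Some genes with a BT-named promoter interval had more, such as DOCK4 with 13 of 41 and SHROOM3 with 11 of 42.

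At the limits of the rule, the members closest to 1000 bp were LOC104972357 at 1000 bp (41 and 61), CNST (141 and 121) and TTYH2 (126 and 116), both at 998 bp. Just outside lay regions of CHST1 at 1001 bp (54 and 60), PRRC2B at -1003 bp (130 and 137) and LAD1 at 1004 bp (88 and 117), so the limit cuts through regions of like height. The lowest members were LOC100847981 (26 and 28), LOC104974710 (26 and 29) and COL21A1. Among the members nearest to a BT-named interval were SLC19A3, 1 bp away, ITGB1, 8 bp, and RABL2B, 16 bp. The farthest were LRFN5 with LOC104975418, 114935 bp away, LOC104968993, 109786 bp, KLHL13, 107515 bp, PABPC4L, 93929 bp, and OLFM3, 87976 bp, and all 5 had low values from 32 to 76.

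Of the 1057 gene names 834 (78.9%) matched a RefSeq symbol or synonym. By that match 753 (71.2%) were protein-coding and 46 (4.35%) long noncoding, against 78.3% and 3.75% of all promoter genes. Among the 465 genes of the second kind 57.8% were protein-coding by name and 40.0% had a LOC name, which 20.3% of all promoter genes had. Members lay on all 29 autosomes and X, from 3.64% of the promoter regions of chromosome 29 (14 of 385) to 8.95% of those of chromosome 8 (46 of 514), with 6.43% on X. A region with more than 1 gene at its start was found in 84 of the 998 (8.42%), against 16.2% of the regions of all 4.

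The counts depend on how near intervals must be to count as 1 region. When intervals up to 500 bp apart were joined, 539 regions remained, while genes without a BT-named promoter interval numbered 443 in place of 465. When each list was cut to the 83391 tallest intervals, 773 regions and 286 such genes were left.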

How the data were processed

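The authors sequenced paired 42-nt reads. The submitters' processing notes name Trim Galore 0.4.1, BWA, MACS2 and the UMD3.1 build, with no roles given, and per the study's methods reads that aligned uniquely with fewer than 2 mismatches were kept and peaks called against input. The authors deposited 1 table that holds the intervals called per library, each with a summit signal (the peak value used here) and an average signal (not used here), nearby genes, distances to their starts and CpG islands. How the authors scaled this signal across libraries: not given in the sources used here. Read totals were not used, so the depth behind a value is unknown. Starts count from 0 in the table and are printed counting from 1.

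Intervals overlapping by at least 1 bp were merged with pandas 2.3.3 in Python 3.11.15, and the taller interval was taken in the 3 of 998 regions where 1 library had more than 1. The distance to a start is that of the summit. Gaps are bases between interval edges. Merging and gaps were tested on simulated data. Named genes are the 15 tallest regions, the 15 tallest without a BT-named promoter interval at any of their genes, members of the gene lists, those at the limits of the rule, genes with several regions and microRNA genes; DDR1, GLDC and the genes of the maps were named after their values were seen. Members and lists were chosen with earlier results of these data known. A few genes that this rule names, and the counts of lists that rest on them, are not reported here. No test was run, since the lists themselves chose the regions. Gene names were matched to RefSeq assembly ARS-UCD2.0, for names only. No sequence was used, so the planned motif search was not run. Alternatives were other distances, overlaps, thresholds and list lengths, and leaving out each library.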

Additional observations from a re-analysis of the deposited data

How the results depend on the processing

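With a distance limit of 500 bp there were 436 regions and 448 genes, and with 2000 bp there were 1634 and 1778, in place of 998 and 1057. Joining intervals up to 500 bp apart gave 539 and 553. Genes without a BT-named promoter interval (465) numbered 224 when Control-named intervals needed a peak value of 50 and 286 with lists of equal length, and under these 2 settings 69.6% and 78.5% of the 1057 genes remained. Leaving out 1 library at a time gave 1232 to 1600 regions, 1302 to 1686 genes and 561 to 673 genes without a BT-named promoter interval. The highest counts came without Control-named replicate 1. The 15 tallest of all 998 regions and the 15 tallest of the second kind held 30 names. Of these, 11 remained at 500 bp and 14 with intervals up to 500 bp apart joined. All 30 remained under the other 12 alternatives. The share with a CpG island was 38.0% at 2000 bp and 37.5% with that joining. No paired analysis was possible because the results come from no test. The floor of the lists, at 21 or 22, limits what absence from a list can show.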
